A study of Mus musculus with 3 samples.

Results

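The Nr4a genes encode a small family of nuclear receptors, and chromatin at the 3 loci, Nr4a1, Nr4a2 and Nr4a3, was read from DNase-seq of mouse monocytes. The members were chosen by name, as 3 of 21851 protein-coding genes with a coding transcription start site (TSS) on chromosomes 1 to 19, X and Y in the GENCODE M21 basic annotation. All 3 were found. DNase-seq cuts nuclear DNA with the enzyme DNase I and sequences the cut ends, so that a peak marks accessible DNA and a footprint marks a short stretch within it that is cut less than its flanks. The series held 3 libraries of 1 group, primary monocytes of virgin adult B6CASTF1/J females aged 2 months, an F1 cross of the C57BL/6 and CAST strains with no treatment or genetic change named. They are labelled biological replicates 1, 2 and 4, each with a biosample entry of its own and all with 1 shared donor identifier. The labels do not state whether different animals gave the libraries, so each SD given is the spread between libraries, which may be technical. With 1 group there was no contrast to test, and no p-value is given.

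NR4A proteins are called orphan receptors, and their ligand pocket is filled by bulky side chains. They are immediate-early gene products: their amount, set by rapid transcription after a stimulus, largely sets their activity. They bind DNA as monomers at the NBRE, an extended receptor core site, or as pairs, and Nr4a1 and Nr4a2 also pair with retinoid X receptors. Signals through cyclic AMP and calcium reach their promoters by way of CREB, MEF2 and SRF. Nr4a1 (Nur77) is required for the Ly6C-low patrolling monocyte. An enhancer at its locus that depends on the Krüppel-like factor KLF2 has been described in those cells. Nr4a2 (Nurr1) is best known for the development of midbrain dopamine neurons, and Nr4a3 (NOR-1) for roles in myeloid cells and muscle, some of them shared with Nr4a1.

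Peaks were taken from the longer of the 2 deposited lists of each library, which held 54046, 42657 and 48980 peaks in replicates 1, 2 and 4, beside 144028, 107955 and 119597 footprints. Replicate 2 had the fewest of both. Read totals are not given in the files, so depth is unknown. Each peak carries a height, a signal computed by the authors whose scale is not stated. Heights are therefore given per library and also as a percentile, the percent of peaks in the same library at or below that height. The median height of regions shared by all libraries was 1.45, 1.18 and 1.66, so heights in replicate 4 were higher in the median. A promoter peak overlapped 1 kb either side of a coding TSS of its gene. Peaks were called distal when they lay outside all such windows of all genes, and counted for a gene when their midpoint was within 50 kb of the most upstream coding TSS. Placement by distance does not show that a distal region acts on the gene. As a check of the label, 6 of 10 monocyte marker genes (60%) were open at the promoter in each library, near the 50.5% of all genes. They were Csf1r, Cx3cr1, Itgam, Cd14, Spi1 and Treml4, with a median promoter percentile of 58.4. Over all genes open at the promoter in each library the median was 87.0. Ccr2 had no promoter peak, Fcgr4 had one in 2 libraries, and Fcgr1 and Ly6c2 had one in 1. No promoter peak was found in all libraries at 4 T cell, 4 B cell, 2 natural killer, 2 mast cell and 2 erythroid markers. Of 5 neutrophil markers, S100a8 and Mmp8 had one in each library, at mean percentiles of 41.9 and 19.7, and Mpo, Elane and Ly6g had none. In bulk chromatin, a site open in few cells and a site weakly open in all cells cannot be told apart.

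The promoter sequences are shown first, because 1 short element recurs in all of them. They come from the RefSeq table of promoters on GRCm38.p6, the assembly that the deposited mm10 coordinates use, and all 3 members matched. It is reference sequence of C57BL/6 origin, and alleles of the CAST parent were not analysed here. Capitals mark TGACG or its reverse complement CGTCA, the core of the cyclic AMP response element bound by CREB. The Nr4a1 stretch is chr15:101266596-101266845, plus strand, and ends just before the downstream coding start. The Nr4a2 stretch is chr2:57124004-57124253, minus strand. The Nr4a3 stretch is chr4:48045055-48045174, plus strand, and stops short of the RefSeq start, which lies downstream of the GENCODE start used for the peaks.
Nr4a1 promoter: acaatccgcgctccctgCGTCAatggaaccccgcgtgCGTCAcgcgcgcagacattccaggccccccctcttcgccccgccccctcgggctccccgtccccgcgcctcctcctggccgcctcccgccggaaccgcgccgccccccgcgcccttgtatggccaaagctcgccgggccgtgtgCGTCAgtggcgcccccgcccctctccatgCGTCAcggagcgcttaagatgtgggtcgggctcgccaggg
Nr4a2 promoter: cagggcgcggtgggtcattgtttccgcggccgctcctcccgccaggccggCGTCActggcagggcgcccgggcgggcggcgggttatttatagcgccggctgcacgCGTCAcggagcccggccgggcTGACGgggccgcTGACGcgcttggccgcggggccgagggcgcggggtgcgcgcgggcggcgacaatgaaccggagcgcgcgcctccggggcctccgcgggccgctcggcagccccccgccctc
Nr4a3 promoter: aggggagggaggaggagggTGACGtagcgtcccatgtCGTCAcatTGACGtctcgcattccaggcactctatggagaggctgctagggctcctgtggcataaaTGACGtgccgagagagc

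Each of the 3 promoters held 4 copies of TGACG, counting both strands. Over 21262 RefSeq promoters of the same 300 bases, 250 before the start and 50 after it, 23.6% held at least 1 copy, 1.38% at least 3 and 0.325% at least 4. The full palindrome TGACGTCA, found in 2.23% of promoters, was in none of the members. A match is a description of the letters and is not evidence of binding. Where footprints fell on these letters differed between the genes. In the Nr4a3 promoter, footprints of all 3 libraries reached 3 of the 4 copies, those starting at -231, -213 and -205 from the RefSeq start, and covered all 5 bases of the copy at -231 in each library. The copy at -147 was reached in 2 libraries. In the Nr4a1 promoter none of the 4 copies was reached in all libraries, and the same was true of Nr4a2.

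At Nr4a1 the footprints of all libraries lay instead on the GC box GGGCGG, a binding element of Sp and Krüppel-like factors, read here on the minus strand as ccgccc. All 3 GC boxes, at -174, -114 and -55, were covered over 6 of 6 bases in every library, and the shared footprints ran from -183 to -162, from -125 to -100 and from -62 to -42. The box at -55 overlapped a match to the EGR pattern GCGNGGGCG, which 7.52% of promoters hold. At least 3 GC boxes were present in 14.7% of promoters and at least 1 in 46.2%, so the pattern itself is common. The Nr4a2 promoter held 5 GC boxes, 1 of them touched by footprints of all libraries. The 3 promoters were rich in CpG, with observed over expected ratios of 0.913 at Nr4a1, 1.04 at Nr4a2 and 0.866 at Nr4a3 against a median of 0.567 over all promoters. Their GC contents were 72.3%, 81.7% and 64.7% against a median of 56.3%. TGACG itself holds a CpG, and its shares above were taken over all promoters, not over those of like CpG and GC content.

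**Figure D1:**
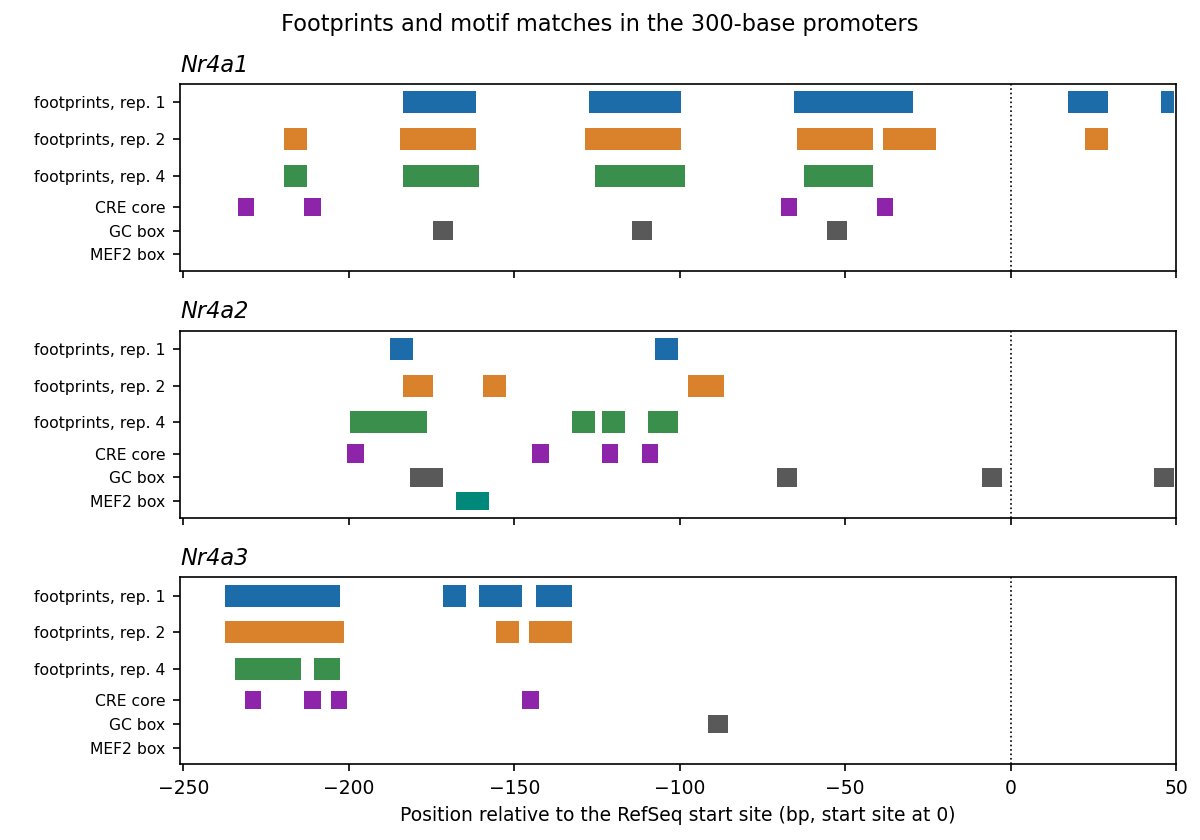
Footprints of each library (blue replicate 1, orange replicate 2, green replicate 4) and matches to the CRE core, the GC box and the MEF2 box, drawn by position in base pairs from the RefSeq start site (dotted line) of each Nr4a gene. At Nr4a1 the 3 blocks footprinted in every library each hold a GC box, while at Nr4a3 footprints of every library reach 3 of the 4 CRE cores.

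MEF2 matters for these genes as background because it carries calcium signals to Nr4a1 together with class IIa histone deacetylases. A match to the MEF2 box, which has an A and T core and was present in 2.74% of promoters, lay near both Nr4a1 starts and in the Nr4a2 promoter. Only the Nr4a2 match lay in a RefSeq promoter window, the kind of window that this share counts. Both Nr4a1 matches lay outside the Nr4a1 window. Capitals mark the match in each stretch. The first is chr15:101254050-101254107 upstream of the upstream Nr4a1 start, the next is chr15:101266571-101266614 upstream of the downstream start, both on the plus strand, and the last is chr2:57124137-57124194 on the minus strand.
Nr4a1 first-start MEF2 match: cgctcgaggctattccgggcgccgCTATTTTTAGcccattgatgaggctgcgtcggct
Nr4a1 second-start MEF2 match: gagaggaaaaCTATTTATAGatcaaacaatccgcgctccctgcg
Nr4a2 MEF2 match: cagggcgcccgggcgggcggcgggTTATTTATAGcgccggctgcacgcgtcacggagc
At the upstream Nr4a1 start, footprints covered 10, 7 and 5 of its 10 bases in replicates 1, 2 and 4. At the other 2 sites only replicate 2 had a footprint on the match, over 4 bases at the downstream Nr4a1 start and 2 bases at Nr4a2. No match to the SRF element (the CArG box), to the NBRE AAAGGTCA or to the AP-1 site TGANTCA was found in the 3 RefSeq promoters. That says only that these letters are not in these windows.

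Nr4a1 had the tallest promoter peak and the most distal peaks of the family in these monocytes, though not the tallest distal region (gene ENSMUSG00000023034.7, chr15:101254269-101274795, plus strand, 20.5 kb). It has 2 coding starts, at 101254269 and at 101266846, 12.577 kb downstream. The tallest promoter peak sat at the downstream start, over chr15:101266541-101266900, with heights of 9.09, 8.50 and 13.9 in replicates 1, 2 and 4 (mean 10.5 ± 2.97, SD, n = 3). Replicate 4 was the highest, as it was in the median of shared regions. Divided by the median height of shared regions in the same library, the values were 6.26, 7.21 and 8.39. As percentiles they were 98.1, 98.4 and 98.7 (98.4 ± 0.299, SD, n = 3), so the libraries ranked this peak almost alike. Among 11029 genes with a promoter peak in all 3 libraries, which are 50.5% of the genes, 761 genes (6.90%, Nr4a1 included) had a promoter peak as high in mean percentile.

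The upstream start of Nr4a1 was open too, but lower. Its peak over chr15:101253941-101254260 had heights of 3.75, 2.61 and 5.58, with 4, 4 and 5 footprints. In each library this was below the peak at the downstream start, which carried 6, 8 and 5 footprints. A further region 0.666 kb upstream of the downstream start, chr15:101265961-101266400 in the intron, had heights of 3.21, 1.92 and 3.84 and no footprint in any library. Of 13700 promoter regions with a peak in all libraries, 3.29% had a footprint in none. Among the 6689 at least as tall as this one on average, 3 regions (0.0448%, this one included) had none, a comparison made after its values were seen. The 3 promoter regions described so far had a peak in all libraries, as did 66.8% of all merged promoter regions. A low peak of 0.858 beyond the downstream start, at +13.53 kb, was called in replicate 1 only.

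Like 60% of all genes, each member had at least 1 distal peak in every library. Around Nr4a1 lay 16, 10 and 15 of them in replicates 1, 2 and 4 (13.7 ± 3.21, SD, n = 3). The fewest were in replicate 2, the library with the fewest peaks in all, and whether depth set that number was not tested. Over all 21851 genes the median was 1.67 and the mean 2.40, and 132 genes (0.604%, Nr4a1 included) had as many. Merged over libraries by overlap, the peaks formed 19 regions, of which 9 had a peak in all 3 libraries, 4 in 2 and 6 in 1. The share in all libraries, 47.4%, was close to the 48.3% of all merged distal regions. A gene with 9 or more such recurrent regions was uncommon, at 1.62% of genes.

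The 9 recurrent regions spread over the locus, with 7 upstream of the upstream start and 2 in an intron of the gene, at a median spacing of 4.935 kb. Every one had a footprint in all 3 libraries, against 80.6% of recurrent distal regions in general. Their mean heights ran from 1.74 to 6.98, above those of the regions seen in fewer libraries, which ran from 0.829 to 1.72 over the libraries that had them. Of those 10 weaker regions, 0 had bases with a false discovery rate under 0.05 in all libraries. The stricter, shorter lists of all 3 libraries held 5 of the 9.

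**Figure D2:**
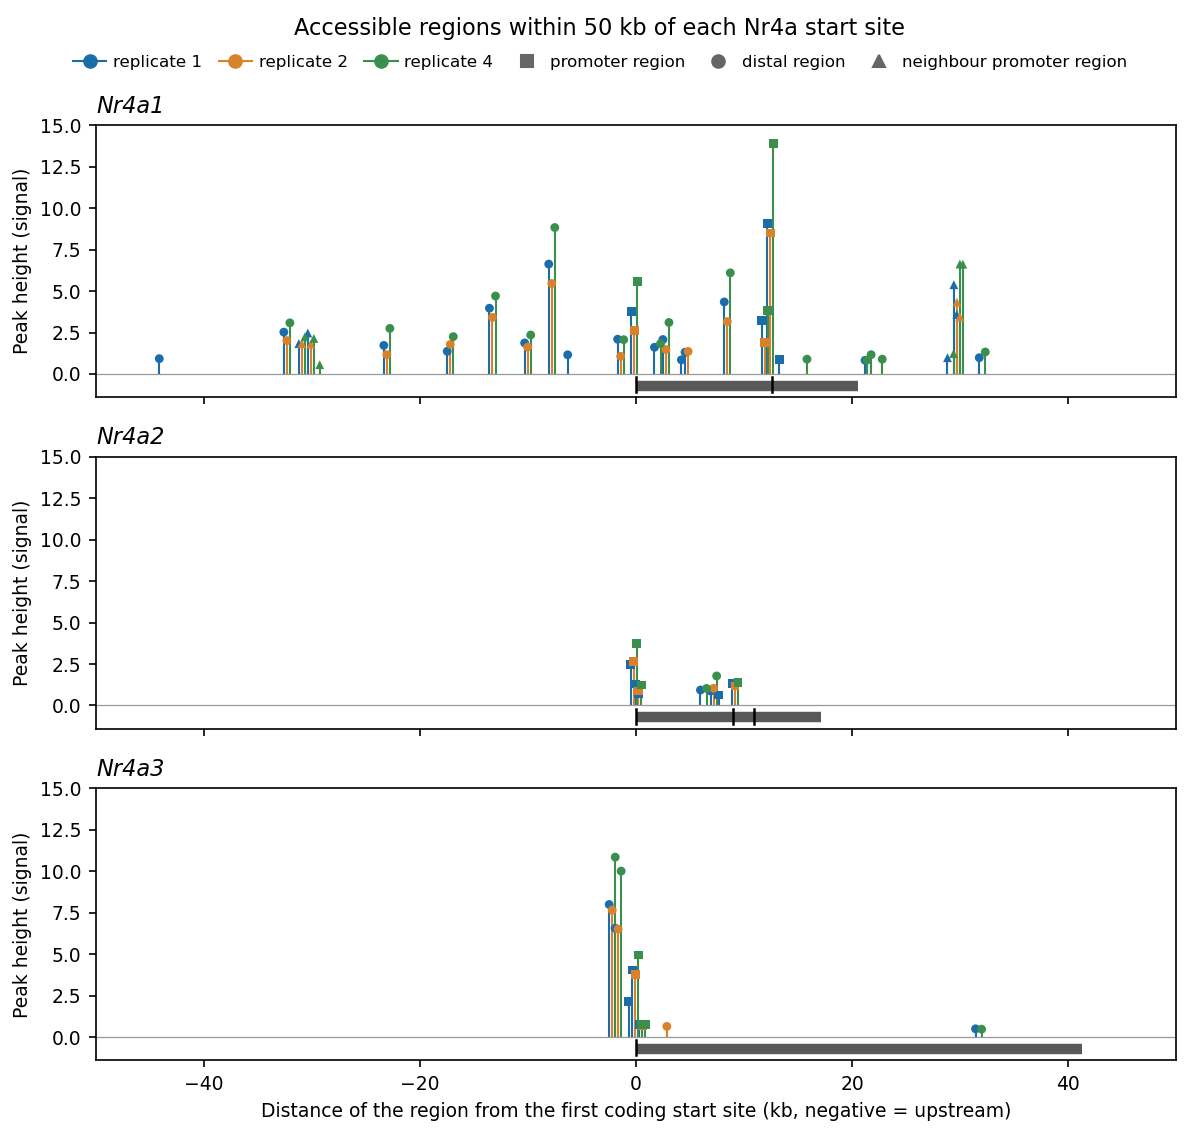
Height of each peak (signal, as the authors gave it) by distance in kb from the most upstream coding start of each gene, with replicates 1, 2 and 4 in blue, orange and green and drawn slightly apart so that they do not hide each other. Squares are promoter regions of the gene, circles distal regions, triangles promoters of neighbouring genes, and the grey bar is the gene with its coding starts ticked. Nr4a1 has distal regions on both sides of its upstream start, Nr4a2 has low ones inside the gene, and the tall distal regions of Nr4a3 stand next to its promoter.

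The tallest distal region of Nr4a1 was intergenic, 7.80 kb upstream of the upstream start, over chr15:101246281-101246660. Its heights were 6.63, 5.46 and 8.84, at percentiles of 95.2, 93.7 and 94.7 of all peaks and of 99.3, 99.0 and 99.2 among distal peaks alone, and it held 5, 9 and 6 footprints. In each library it was lower than the promoter peak, with a ratio to it of 0.730, 0.642 and 0.635 (0.669 ± 0.0525, SD, n = 3). The next tallest was in an intron, 8.45 kb downstream of the upstream start and 4.13 kb before the other, over chr15:101262541-101262900. It reached 4.35, 3.16 and 6.10 with 5, 6 and 5 footprints. A region 13.29 kb upstream, chr15:101240801-101241160, reached 3.97, 3.41 and 4.70. All 3 of these regions were in the stricter lists of every library.

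The remaining 6 recurrent regions of Nr4a1 were lower, each with a mean height under that of the region 13.29 kb upstream. The most distant lay 32.33 kb upstream over chr15:101221841-101222040, in exons of the genes A330009N23Rik and AU021063, with heights of 2.52, 2.01 and 3.08. A region in an intron of Grasp, a scaffold protein gene upstream of Nr4a1, lay 23.07 kb away at chr15:101231081-101231320 with 1.72, 1.16 and 2.75. The others were at 17.20 kb, 10.03 kb and 1.42 kb upstream, all intergenic, and at 2.77 kb downstream in an intron. Divided by the shared median of each library, the heights of the 9 regions varied between libraries by a coefficient of variation of 16.4% in the median, from 2.90% to 27.0%.

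Other genes share this window, so that not every open site there need belong to Nr4a1. The coding starts of Grasp, of the autophagy gene Atg101 and of 6030408B16Rik lay within 50 kb. The Atg101 promoter, about 30 kb downstream, had a peak over chr15:101283861-101284100 with heights of 5.38, 4.34 and 6.63. The Grasp promoter had a peak over chr15:101223161-101223500 with heights of 1.83, 1.83 and 2.24 and another over chr15:101224041-101224280 with 2.47, 1.79 and 2.14. All 3 were below the Nr4a1 promoter in every library. An intron of Acvr1b, the activin receptor gene on the far side of Grasp, held a distal region in replicate 1 only, at 0.923.

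In letters, the tallest upstream region of Nr4a1 resembled the promoters. It is shown over chr15:101246321-101246620, plus strand, with TGACG in capitals, beside the intronic region over chr15:101262571-101262870, plus strand, with CACCC or GGGTG in capitals, the core of elements bound by Krüppel-like factors.
Nr4a1 upstream region: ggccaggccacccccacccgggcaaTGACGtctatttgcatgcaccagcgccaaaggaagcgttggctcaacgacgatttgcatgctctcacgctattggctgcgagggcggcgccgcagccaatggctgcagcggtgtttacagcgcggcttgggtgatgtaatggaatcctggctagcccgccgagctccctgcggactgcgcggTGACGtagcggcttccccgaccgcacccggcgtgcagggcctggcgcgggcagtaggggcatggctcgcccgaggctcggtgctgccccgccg
Nr4a1 intronic region: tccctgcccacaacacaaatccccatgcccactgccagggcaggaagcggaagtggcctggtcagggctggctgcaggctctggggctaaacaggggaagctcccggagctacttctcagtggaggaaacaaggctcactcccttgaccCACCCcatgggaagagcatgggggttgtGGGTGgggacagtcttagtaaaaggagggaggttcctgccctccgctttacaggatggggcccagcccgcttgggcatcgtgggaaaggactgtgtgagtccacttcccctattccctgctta
The upstream region held 2 copies of TGACG, and footprints of all libraries lay on both, over 5, 5 and 4 bases of the copy nearer its start and over all 5 bases of the other. At least 2 copies were found in 2.63% of recurrent distal regions when each was taken as 300 bases at its midpoint; the windows searched at the Nr4a genes were 300 bases or, where the region is shorter, the region itself. Its CpG ratio of 0.923 was at percentile 98.4 of recurrent distal regions, whose median was 0.267, while the other 8 regions of Nr4a1 had ratios from 0.0726 to 0.346. The share of regions with at least 2 copies of TGACG was not matched for CpG content. It also held 2 octamers ATTTGCAT, a motif of POU factors present in 1.42% of such regions, footprinted in 2 libraries and in 1.

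The KLF core CACCC is frequent, being found in 59.9% of recurrent distal regions and 59.5% of promoters. It was present in 6 of the 9 recurrent regions of Nr4a1, and in 3 of them footprints of all libraries lay on a copy: the regions 32.33 kb and 7.80 kb upstream and 2.77 kb downstream. In the region 7.80 kb upstream, the shared footprint on that copy also reached a TGACG copy. In the region 32.33 kb upstream, the shared footprint on the copy also covered a near match to the CTCF core described below. The share of all recurrent distal regions with a footprinted copy was not computed for this or the other motifs. The 3 can therefore not be called many or few. In the intronic region at 8.45 kb, 1 copy was footprinted in replicates 1 and 4 and the other in replicate 2. The PU.1 pattern GAGGAAG, found in 24.6% of recurrent distal regions, was in 2 of the 9 and footprinted in all libraries in 0. RUNX (TGTGGT), found in 27.3%, was also in 2, again with 0 footprinted in all. The E-box CANNTG, found in 81.3%, was in 5 of the 9, with 2 footprinted. C/EBP (TTGCNNAA), ETS (CCGGAAG), IRF, AP-1 and NBRE letters, found in 16.1%, 3.62%, 4.31%, 14.1% and 2.02%, were in none of the 9. Only these fixed patterns were searched. Shorter or variant forms of the same sites, under footprints or not, would be missed.

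The Grasp intron region carried a match to the CTCF core, present in 16.0% of recurrent distal regions. Letters that differ from this fixed pattern were not counted, so CTCF-like stretches in the other regions would be missed. CTCF is the insulator protein that anchors chromatin loops. The match, in capitals in the stretch chr15:101231161-101231220, plus strand, lies on the minus strand and was covered by footprints over 12 of 12 bases in each library.
Nr4a1 CTCF match: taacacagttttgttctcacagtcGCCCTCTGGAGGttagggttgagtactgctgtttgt
The CTCF, CCAAT box, octamer and NF-kB patterns were added after the data were seen.

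Nr4a3 showed another arrangement, with a pair of distal regions taller than its promoter (gene ENSMUSG00000028341.9, chr4:48045153-48086447, plus strand, 41.3 kb, 1 coding start). The tallest promoter peak, over chr4:48044961-48045200, had heights of 4.04, 3.77 and 4.95 (4.25 ± 0.619, SD, n = 3). Its percentiles were 89.1, 88.0 and 87.2 (88.1 ± 0.954), near the 87.0 that was the median over genes with a promoter peak in all libraries. It carried 5, 5 and 3 footprints. A broad low region inside the gene start, chr4:48045421-48046052, reached 0.759, 0.674 and 0.755. Between the promoter peak and the upstream regions, at chr4:48044541-48044940, a peak of 2.14 was called in replicate 1 alone, although all 400 of its bases had a false discovery rate under 0.05 in each library.

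Upstream of that promoter stood a pair of tall distal regions, 0.55 kb apart. The farther one, 2.20 kb upstream at chr4:48042841-48043060, had heights of 8.0, 7.65 and 10.9, at percentiles of 97.1, 97.5 and 96.8 of all peaks. The nearer one, 1.65 kb upstream at chr4:48043341-48043660, had 6.56, 6.51 and 10.01. Each was taller than the Nr4a3 promoter peak in each library, and both were in the stricter lists of all libraries. The ratio of the tallest distal to the tallest promoter peak was 1.98, 2.03 and 2.19 (2.07 ± 0.111, SD, n = 3). A distal peak above the promoter peak in all libraries was found at 21.8% of 8463 genes with both kinds in all 3, and at 16.6% of 2193 genes when only distal peaks within 5 kb were counted. Because the pair lies just beyond the 1 kb limit of the promoter window, a wider window would count it as promoter.

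Capitals in the farther region, chr4:48042841-48043060, plus strand, mark bases under footprints of all 3 libraries.
Nr4a3 upstream region: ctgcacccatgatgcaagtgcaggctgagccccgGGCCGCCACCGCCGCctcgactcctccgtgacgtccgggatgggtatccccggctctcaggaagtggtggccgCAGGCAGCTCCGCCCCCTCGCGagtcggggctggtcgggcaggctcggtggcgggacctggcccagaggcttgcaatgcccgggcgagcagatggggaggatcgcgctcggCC
The longer run of capitals held a GC box, covered over 6 of 6 bases in each library and present in 14.9% of recurrent distal regions. The TGACG copy in this region had no footprint in any library. The CpG ratio was 0.757 here and 0.951 in the nearer region, at percentiles 95.3 and 98.7 of recurrent distal regions. In that respect the pair was like the tall upstream region of Nr4a1 and unlike the other distal regions of that gene.

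Nr4a3 had 3 distal peaks in each library, and 7183 genes (32.9%, Nr4a3 included) had as many in the mean. Merged, they formed 4 regions, 2 of them in all libraries, and 39.9% of genes had 2 or more recurrent regions. The other 2 were weak, with mean heights of 0.483 and 0.638, and lay in introns 31.72 kb and 2.86 kb downstream of the start, in 2 libraries and in replicate 2 alone. Footprints numbered 12, 6 and 3 in the promoter peaks and 10, 8 and 8 in the distal ones, so the promoter count of Nr4a3 varied the more between libraries.

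Nr4a2 had the lowest promoter peak of the family (gene ENSMUSG00000026826.13, chr2:57106830-57124003, minus strand, 17.2 kb, 3 coding starts). The tallest peak lay just upstream of the most upstream start, over chr2:57124081-57124360, at 2.47, 2.63 and 3.74 (2.95 ± 0.688, SD, n = 3). The percentiles were 80.9, 81.4 and 82.7 (81.6 ± 0.968), and 6920 genes (62.7% of those with a promoter peak in all libraries) were as high. A lower peak on the other side of the same start, chr2:57123621-57123960, had 1.29, 0.869 and 1.24. A region at the next start, 8.97 kb into the gene at chr2:57114581-57115100, had 1.30, 1.17 and 1.36, with 5, 0 and 3 footprints. The last start, 10.93 kb into the gene, had no peak within 1 kb in any library.

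Distal peaks of Nr4a2 numbered 2, 1 and 2 (1.67 ± 0.577, SD, n = 3), which was also the median over all genes. Only 1 region was in all libraries, in an intron 7.19 kb downstream of the start at chr2:57116641-57116990, with heights of 0.874, 1.04 and 1.78, and 58.9% of genes had at least 1 recurrent region. It was in the stricter list of 1 library, so that 0 regions were recurrent with those lists. With the longer lists, 2 regions were recurrent when replicate 2 was left out. No distal region was found upstream of Nr4a2 within 50 kb. In each library the tallest distal peak was lower than the promoter peak, at a ratio of 0.377, 0.394 and 0.477 (0.416 ± 0.0535). The recurrent region held 3 copies of TGACG, each footprinted in 1 library. At least 3 were held by 0.40% of recurrent distal regions, a share also not matched for CpG content.

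Side by side, the family kept the same order of promoter percentiles in all 3 libraries. Promoter percentiles were at least 98.1 for Nr4a1, from 87.2 to 89.1 for Nr4a3 and from 80.9 to 82.7 for Nr4a2, with no overlap between genes. Distal peaks, at 10 to 16, 3 and 1 to 2, did not overlap either within 50 kb, but with a 100 kb window the mean was 4.67 for Nr4a2 and 4 for Nr4a3. In contrast, the footprints in promoter peaks did: 11, 9 and 9 at Nr4a1 (9.67 ± 1.15), 12, 6 and 3 at Nr4a3 (7 ± 4.58) and 12, 4 and 8 at Nr4a2 (8 ± 4), so that the genes could not be ordered by them. Distal footprints, counted over all distal peaks of a gene, separated Nr4a1, at 40, 29 and 39, from Nr4a3, at 10, 8 and 8, and Nr4a2, at 3, 2 and 6. These totals were not divided by the number of distal peaks, which was also highest at Nr4a1, so they are not a separate difference. The number of starts differs between the genes, and with it the length of the promoter windows.

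**Figure D3:**
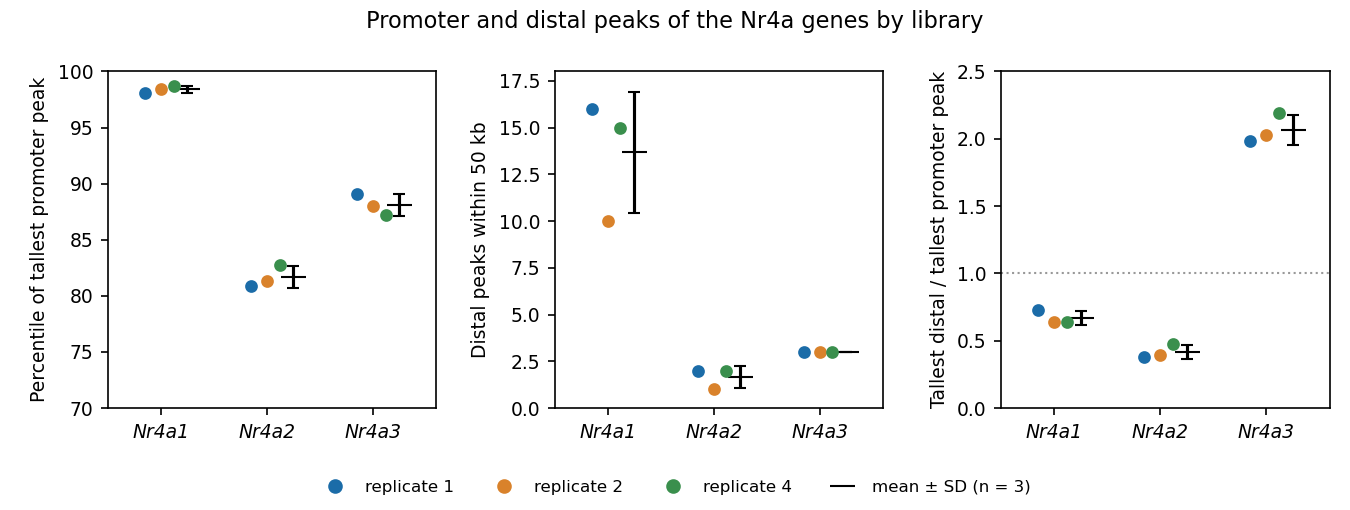
Left, percentile of the tallest promoter peak among all peaks of its library (axis from 70). Middle, number of distal peaks within 50 kb. Right, height of the tallest distal peak over that of the tallest promoter peak, with a dotted line at a ratio of 1. Points are libraries and bars the mean ± SD of 3. The genes do not overlap in the left and middle panels, and in the right panel Nr4a3 alone lies above 1.

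Against the rest of the nuclear receptor superfamily, Nr4a1 came near the top on both measures. Of 49 receptors, 26 (53.1%) were open at the promoter in each library, against 50.5% of all genes, 4 had one in some and 19 in none. The median over the receptors was 1.33 distal peaks, and 84.1 for the promoter percentile of those with a peak in all libraries. Nr4a1 had the most distal peaks, ahead of the thyroid hormone receptor gene Thra with 15, 11 and 12 (12.7 ± 2.08, SD, n = 3). The ranges of these genes overlapped, and Thra had more than Nr4a1 in replicate 2. Next came the lipid sensor Ppard with 11, 10 and 9, the retinoic acid receptor Rara with 10, 10 and 9, and Hnf4a, a liver and gut factor, with 10, 8 and 8 but no promoter peak. Nr4a3 was 15th and Nr4a2 24th.

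By promoter percentile Nr4a1 was 4th of the 26, after the metabolic regulator Esrra (99.95), the orphan receptor Nr2c2 (99.4 ± 0.316) and the retinoid X receptor Rxrb (99.4 ± 0.0665), and before the clock gene Nr1d2 (97.9 ± 0.779). The ranges of Nr4a1 and Nr1d2 overlapped, while Nr4a1 lay below the other three in each library. Nr4a3 was 11th and Nr4a2 15th. Thra, next to Nr4a1 in distal peaks, had a promoter at percentile 51.3 ± 5.23, so the measures did not rank the receptors alike.

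**Figure D4:**
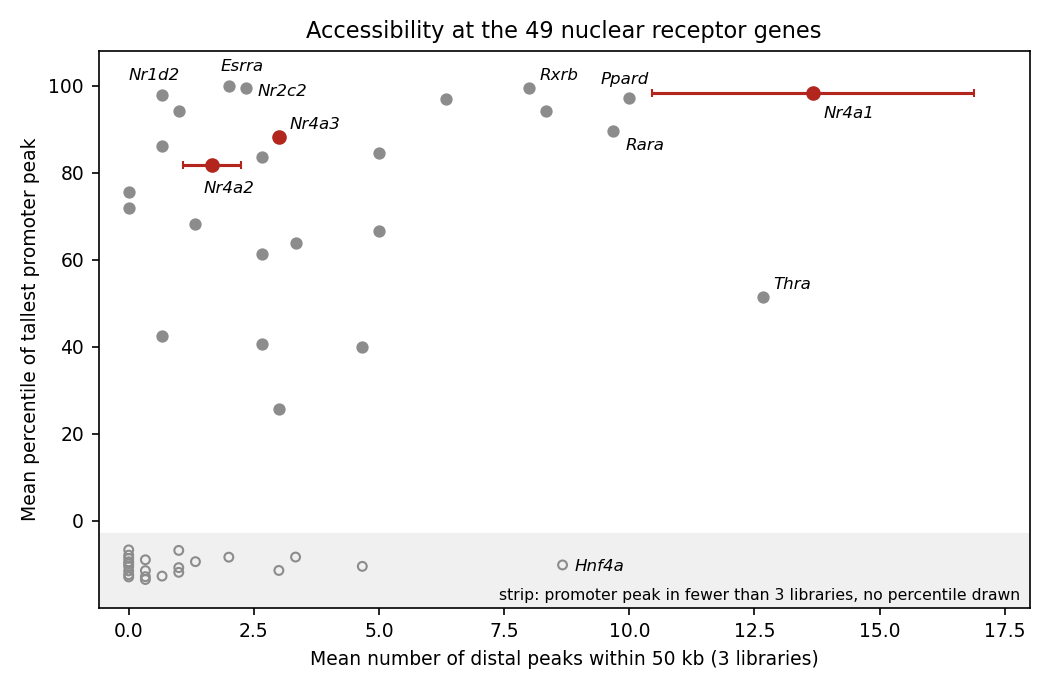
Mean number of distal peaks within 50 kb against the mean percentile of the tallest promoter peak over 3 libraries, for 49 nuclear receptor genes. Red points are the Nr4a genes with SD bars, and open points in the shaded strip are genes with a promoter peak in fewer than 3 libraries, spread vertically only to be seen. Nr4a1 lies at the upper right, with 13.7 distal peaks at percentile 98.4.

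The genes that relay signals to the Nr4a promoters were mostly open. Of 28 genes for CREB, its coactivators, SRF and its partners, MEF2, class IIa histone deacetylases, calcineurin and NFAT, and the factors KLF2 and KLF4, 23 (82.1%) were open at the promoter in each library, against 50.5% of all genes. Those without were Camk4, Hdac9 and Nfatc2, with none, Elk3 in 2 libraries and Hdac7 in 1. The median was 2.83 distal peaks. Klf2 had 17 in each library, more than Nr4a1 had in any, followed by Nfatc1 with 8 in each and the CREB coactivator Crtc3 with 7 ± 2 (SD, n = 3). Of 10 partners and corepressors of the NR4A proteins, 9 (90%) were open at the promoter in each library, the exception being Rxrg. Their median was 4.33 distal peaks. The deacetylase gene Hdac1 had 8.33 ± 0.577 and Rxrb 8 ± 1.73 (SD, n = 3). Accessibility is not expression, and no RNA was measured here.

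Genes with the most similar profile were sought by Euclidean distance over 9 values, the promoter percentile, distal peaks and promoter footprints of each library, each divided by its SD over genes. For Nr4a1 these were the scaffold gene Iqgap1, at a distance of 1.29, and Zc3h12a, which encodes the RNase regnase-1, at 1.40. Nr4a2 was closest to the proteasome assembly gene Psmg2 (0.558) and to Trio (0.596), and Nr4a3 to the linker histone gene Hist1h1e (0.627) and to Fbxo32 (0.692). The distances were larger for Nr4a1 than for the other members.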

How the data were processed

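The authors' deposited files gave, per library, 2 peak lists with a height per peak (a signal whose scale is not stated) and footprints. They also gave intervals of false discovery rate, listed where it is under 0.05. Per the file descriptions, each was derived from the filtered alignment of its own library on mm10. The deposited footprints carry 1 constant p-value, which was not used. For the aligner, the peak caller and the calling of footprints, the tool is not given in the sources used here. The longer peak list was used, and the shorter one was an alternative.

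The peaks of chromosomes 1 to 19, X and Y were joined to GENCODE M21 basic (41438 coding starts) and merged over libraries by overlaps of 1 bp with pandas 2.3.3 and numpy 2.4.6 in Python 3.11.15. Sequences were read with pysam 0.24.0, and figures drawn with matplotlib 3.10.9. The counting was tested on simulated data and recovered 200 of 200 genes. Motifs were searched on both strands, and a match counted as footprinted in a library when at least 1 base lay under a footprint.

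Named genes were the members, their neighbours within 50 kb, genes holding a described region, the leading 5 receptors on each measure, the leading 3 of the other lists with those lacking a promoter peak in a library, and the 2 nearest profiles; 1 gene that the rule names is not reported here. The members and lists were chosen with earlier results of these data known. One erythroid marker, Hbb-b1, matched no gene.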

Additional observations from a re-analysis of the deposited data

How the results depend on the processing

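Of 42 values recomputed under another setting, 25 were counted as the same and 17 as moved. For most, the same meant within 1 SD between libraries of the reported value. Counts of recurrent regions were judged by their ratio to the reported count instead. Distal peaks of Nr4a3 had an SD of 0, so any change in them counted as moved. The shorter peak lists gave promoter percentiles of 97.7 for Nr4a1, 73.2 for Nr4a2 and 82.6 for Nr4a3, with 9.67, 0.333 and 2 distal peaks, and recurrent distal regions fell to 5 for Nr4a1 and 0 for Nr4a2. Ranked among promoter peaks only, the percentiles were 96.0, 60.5 and 71.7. A 100 kb window gave 22.7, 4.67 and 4 distal peaks. Keeping the taller 50% of peaks gave 1 for Nr4a2 and 2 for Nr4a3. Counting whole footprints inside peaks gave 6.67 distal footprints for Nr4a3. The order of the genes in promoter percentile was the same with the shorter lists and among promoter peaks only; with the 100 kb window Nr4a2 passed Nr4a3 in distal peaks. Leaving out 1 library at a time gave 1 to 2 recurrent distal regions for Nr4a2, with 2 when replicate 2 was left out, 9 to 12 for Nr4a1 and 2 to 3 for Nr4a3, and 12.5 to 15.5 distal peaks for Nr4a1. The cause was not tested beyond what each setting removes. No paired analysis was possible because there is 1 group and no test. Read depth is not given, so a peak missing from a library may lie below its detection limit.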

Other observations

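Some regions lay just beyond the 50 kb limit. Upstream of Nr4a2, which had no distal region on that side within the window, a region 57.95 kb away at chr2:57181741-57182160 had heights of 5.82, 5.05 and 10.01 in replicates 1, 2 and 4, with 12, 12 and 11 footprints. It was taller than the Nr4a2 promoter peak in every library. It overlaps the tRNA gene n-TAcgc8 (57182078 to 57182149) and the long noncoding RNA genes BB557941 and 4930555B11Rik. A neighbouring region 58.41 kb away, chr2:57182301-57182520, with heights of 2.73, 1.82 and 3.18, overlaps the tRNA gene n-TGgcc8 (57182394 to 57182464). tRNA genes are transcribed by RNA polymerase III and carry their promoter inside the gene. For Nr4a1, a region 61.73 kb downstream had 4.12, 3.24 and 4.25, below the tallest distal region inside the window in each library. In introns of Acvr1b, a region 62.53 kb upstream had 2.11, 1.70 and 2.29 and one 55.88 kb upstream had 1.67, 1.12 and 1.96. For Nr4a3, a region 63.60 kb downstream was found in 2 libraries, at 0.742 and 0.755, far below the pair of tall regions next to its promoter. These regions were looked at after the data were seen.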
